A study of Mus musculus with 12 samples.

Results

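The genes of apoptosis and related forms of cell death were followed in mouse retinas at postnatal day 10 that lacked CRX or carried a mutant form of it. The list holds 31 genes, chosen by name: BCL2 proteins that hold death back or drive it, caspases, proteins that mitochondria release, inhibitors of apoptosis, death receptors with their adaptors and kinases, and the DNA damage genes Trp53 and Parp1. Of these, 27 had at least 1 probe with their symbol, with 77 probes in all, and 21 were tested, out of 12822 genes of the array with a tested probe. The question put to these data was whether death programmes had begun at this age at the level of mRNA.

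The transcription factor CRX binds DNA through a homeodomain and drives genes of rods and cones, and the study compared retinas in which it was altered. Homozygous E168d2neo/d2neo mice carry a frameshift that truncates CRX after its DNA-binding homeodomain, and homozygous R90Wneo/Wneo mice carry an amino acid change within the homeodomain. In both lines a neo cassette was left in an intron of Crx, and it lowers the expression of the mutant allele. Crx-/- mice came from a line made elsewhere and served, with WT mice, as the references. The knock-in alleles were made in 129Sv/J cells and backcrossed for several generations, so that DNA of the donor strain can remain near Crx. The paper describes the first study of the knockout as made on a mixed background with 129Sv, so this can hold for Crx-/- mice too. The labels give C57bl6/J for all 4 genotypes. Each genotype had 3 bead arrays, each hybridised with 1 pool of RNA (4 retinas, both sexes), so that n = 3 counts pools. A signal is given below as log2 of the quantile-normalized intensity with a floor of 16, which is 4 on this scale. In whole retinas, fewer cells of a type and less RNA per cell cannot be told apart.

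In the mitochondrial pathway, BH3-only proteins such as BID, BIM and PUMA release BAX and BAK from their anti-death partners BCL2, BCL-xL and MCL1, and the pores that result let cytochrome c and DIABLO into the cytosol. Cytochrome c and APAF1 then build the apoptosome, which activates caspase-9 and through it the executioner caspases, while IAP proteins hold caspases in check. Death receptors act through FADD and caspase-8, and RIP kinases can turn the same signal toward necroptosis. Much of this machinery is set at the level of protein cleavage and release, which an expression array does not read. Some retinal cells die in normal mouse development in the weeks after birth, so WT retinas are not free of death at this age.

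Markers of retina were present on all arrays, and some arrays stood apart. Of the 45281 probes, 14791 to 18710 were detected (detection p-value under 0.05) on each array, and the mean signal ranged 176 to 394, lowest on E168d2neo/d2neo replicate 1 and WT replicate 1. All 8 tested rod and cone markers, of 11 listed, were detected on at least 1 array in every genotype. On all 3 arrays of a genotype, 7 were detected in E168d2neo/d2neo retinas and 8 in each of the other genotypes. Of these 8 markers, 7 passed an adjusted p of 0.05 as lower than WT in E168d2neo/d2neo retinas, 3 in R90Wneo/Wneo retinas and 6 in Crx-/- retinas. Their summed linear signal was 25049 to 34741 in E168d2neo/d2neo retinas, 45366 to 89167 in R90Wneo/Wneo, 34904 to 39610 in Crx-/- and 112475 to 122141 in WT retinas. None of the 7 tested markers of microglia and macrophages and none of the 7 of Mueller glia and astrocytes passed in any mutant (limma). Of 6 markers of endothelium and pericytes, 1 passed as lower in E168d2neo/d2neo retinas (Pecam1) and 0 in the other mutants, and their summed signal was 1149 to 1454 in E168d2neo/d2neo, 1458 to 1839 in R90Wneo/Wneo, 1191 to 1561 in Crx-/- and 1970 to 2133 in WT retinas, with no overlap between mutants and WT. Their part in the results below was not tested. The summed signal of 5 lens genes was 13154 on E168d2neo/d2neo replicate 1, 2561 on Crx-/- replicate 1, 1451 on R90Wneo/Wneo replicate 3 and 419 on Crx-/- replicate 3, against 38.0 to 71.3 on the WT arrays. The other 5 mutant arrays lay below WT, and the part of lens tissue in the results below was not tested. Xist, which is transcribed from the inactive X chromosome of females, was at the floor or at 4.04 with each of its probes on Crx-/- replicate 3, although the label of that pool gives both sexes. The probe for Crx itself read 13.66, 14.05 and 14.00 in E168d2neo/d2neo, 13.57, 13.43 and 13.43 in R90Wneo/Wneo, 12.99, 12.83 and 13.04 in Crx-/- and 13.65, 13.44 and 13.44 in WT retinas. All 3 Crx-/- arrays lay below all arrays of the other genotypes, with a log2 difference from WT of -0.56 (adjusted p = 0.0511, limma). The probe still had signal in the knockout, so it does not show a loss of Crx and checks those labels only in part.

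Few of the cell death genes differed from WT in any mutant. Each gene was read by its probe of highest mean, and a second probe of Casp9, described below, gave another count. By the probe of highest mean, no member passed an adjusted p of 0.05 in E168d2neo/d2neo or R90Wneo/Wneo retinas, and in Crx-/- retinas 1 passed as higher, Bid, and 1 as lower, Fadd. Over all 24311 tested probes the share that passed as higher was 2.88% in E168d2neo/d2neo retinas, 0.494% in R90Wneo/Wneo retinas and 3.14% in Crx-/- retinas, and the share that passed as lower was 3.68%, 0.847% and 3.87% in the same order. With a change of at least 2-fold asked for as well, these arrays called 3.79%, 0.979% and 3.89% of probes in either direction, and no member was among them by its probe of highest mean. For the 21 tested members such shares come to less than 1 gene per comparison, so the counts of members lay near the background. At an unadjusted p under 0.05, 5 members were higher in E168d2neo/d2neo retinas, 2 in R90Wneo/Wneo retinas and 4 in Crx-/- retinas, and 1 was lower, in Crx-/- retinas (limma). Of all tested probes, 11.3%, 5.74% and 11.2% were higher and 10.3%, 5.68% and 10.4% lower at that p in the same order of genotypes. SAM called 0, 0 and 1 member at a q-value of 0.05, and 3.56%, 0.115% and 6.90% of all probes.

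Detection came first, because it set which genes could be compared. Of the 31 genes, 17 were detected on all 12 arrays by their brightest probe, 4 on some arrays only and 6 on none, and 4 were not measured by a probe of their symbol. The 6 without a detected probe were Bak1, which forms pores in the outer mitochondrial membrane, the inflammatory caspase genes Casp1 and Casp12, the caspase inhibitor genes Xiap and Birc3, and Ripk3, the kinase that starts necroptosis. No difference between genotypes was detectable for these genes at this signal. Bax, the partner of Bak1, Endog, a nuclease of mitochondria, Ripk1 and Trp53 were not analysed here.

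Among the anti-death genes, none of 3 passed in any mutant. Mcl1, which encodes a short-lived BCL2 relative, read 8.43, 9.40 and 9.36 in E168d2neo/d2neo, 8.82, 8.54 and 8.51 in R90Wneo/Wneo, 9.24, 9.03 and 8.84 in Crx-/- and 8.50, 8.48 and 8.57 in WT retinas. The Crx-/- arrays all lay above WT, and replicate 1 of E168d2neo/d2neo lay below it while the other two lay clearly above. The log2 difference from WT was 0.55 ± 0.24 (SE, adjusted p = 0.219) in E168d2neo/d2neo retinas, 0.11 ± 0.24 (adjusted p = 0.920) in R90Wneo/Wneo and 0.52 ± 0.24 (adjusted p = 0.239) in Crx-/- retinas. Without E168d2neo/d2neo replicate 1, Mcl1 passed in E168d2neo/d2neo at a log2 difference of 0.86 (adjusted p = 0.00807) and in Crx-/- at 0.52 (adjusted p = 0.0419). Bcl2, the founding gene of the family, differed from WT by 0.12 log2 units in E168d2neo/d2neo, by -0.08 in R90Wneo/Wneo and by 0.19 in Crx-/- retinas, and the SE was 0.27 in each. Bcl2l1, which encodes BCL-xL, differed by 0.21, 0.03 and 0.24 in the same order, each with an SE of 0.18.

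**Figure D1:**
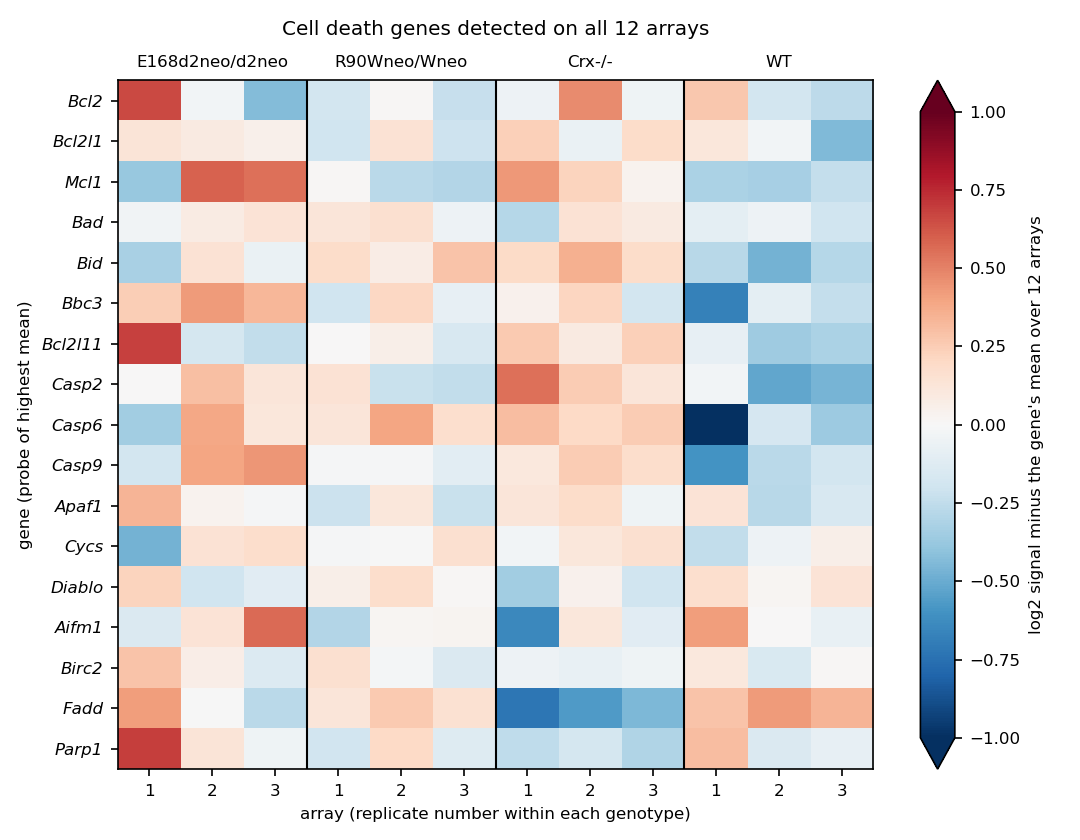
Signal of the 17 cell death genes detected on all 12 arrays, 1 row per gene and 1 column per array, as log2 signal minus the gene's mean over the 12 arrays. Mutant arrays stand left of WT. The row of Fadd is blue on the 3 Crx-/- arrays, Bid, Casp2, Casp6 and Casp9 are blue or pale on the 3 WT arrays, and E168d2neo/d2neo replicate 1 differs from its 2 partners in several rows.

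The BH3-only genes, whose proteins start the mitochondrial pathway, held the only member that rose by its probe of highest mean. Bid, which encodes a protein that caspase-8 cleaves to reach the mitochondria, read 6.71, 7.17 and 6.96 in E168d2neo/d2neo, 7.21, 7.10 and 7.32 in R90Wneo/Wneo, 7.22, 7.38 and 7.22 in Crx-/- and 6.75, 6.56 and 6.75 in WT retinas. All R90Wneo/Wneo and Crx-/- arrays lay above all WT arrays, whereas the lowest E168d2neo/d2neo array lay among the WT arrays. Bid rose in Crx-/- retinas by 0.59 ± 0.16 log2 units (SE, adjusted p = 0.0452), a fold of 1.51, and the difference was 0.53 (adjusted p = 0.172) in R90Wneo/Wneo and 0.26 (adjusted p = 0.370) in E168d2neo/d2neo retinas. That call lay close to the threshold and rested on the full set of arrays. Leaving out 1 array kept it in 2 of 12 cases, those of E168d2neo/d2neo replicates 1 and 2. Without each of the other arrays the adjusted p was above 0.05 (limma), with 0.144 the highest, and without Crx-/- replicate 3 the difference was 0.62 (adjusted p = 0.0890). A dimmer probe of Bid was detected on 1 array of E168d2neo/d2neo, 1 of R90Wneo/Wneo, none of Crx-/- and none of WT, and so adds nothing on these differences.

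Bbc3, which encodes PUMA, the BH3-only protein that p53 induces, read 8.68, 8.86 and 8.77 in E168d2neo/d2neo retinas, against 7.76, 8.34 and 8.20 in WT retinas, with no overlap. Its log2 difference was 0.67 ± 0.19 (SE, adjusted p = 0.0611) in E168d2neo/d2neo retinas, 0.31 ± 0.19 (adjusted p = 0.603) in R90Wneo/Wneo and 0.36 ± 0.19 (adjusted p = 0.304) in Crx-/- retinas. Another Bbc3 probe, detected on all 12 arrays, went the other way by 0.25 log2 units in E168d2neo/d2neo (adjusted p = 0.549), so the probes disagree. With the array number as a block, the brightest probe passed in E168d2neo/d2neo retinas (0.67, adjusted p = 0.0424). Bbc3 lies on chromosome 7 at a distance of 428 kb from Crx in GRCm38.p6, and the part of donor-strain DNA near Crx in its difference was not tested. Bcl2l11, which encodes BIM, read 9.10, 8.93 and 9.08 in Crx-/- retinas, against 8.75, 8.49 and 8.52 in WT retinas, and differed by 0.45 ± 0.23 (adjusted p = 0.285). In E168d2neo/d2neo retinas it read 9.53, 8.66 and 8.59, so that replicate 1 alone lifted the mean, and the difference was 0.34 (adjusted p = 0.435). In R90Wneo/Wneo retinas the difference of Bcl2l11 was 0.22 (adjusted p = 0.788). Bad, a BH3-only protein that growth factor signals switch off, differed from WT by 0.18, 0.19 and 0.10 in E168d2neo/d2neo, R90Wneo/Wneo and Crx-/- retinas, and the SE was 0.15 in each. Pmaip1, which encodes NOXA, was detected on 1 R90Wneo/Wneo and 1 WT array only, and no fold is given for it.

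**Figure D2:**
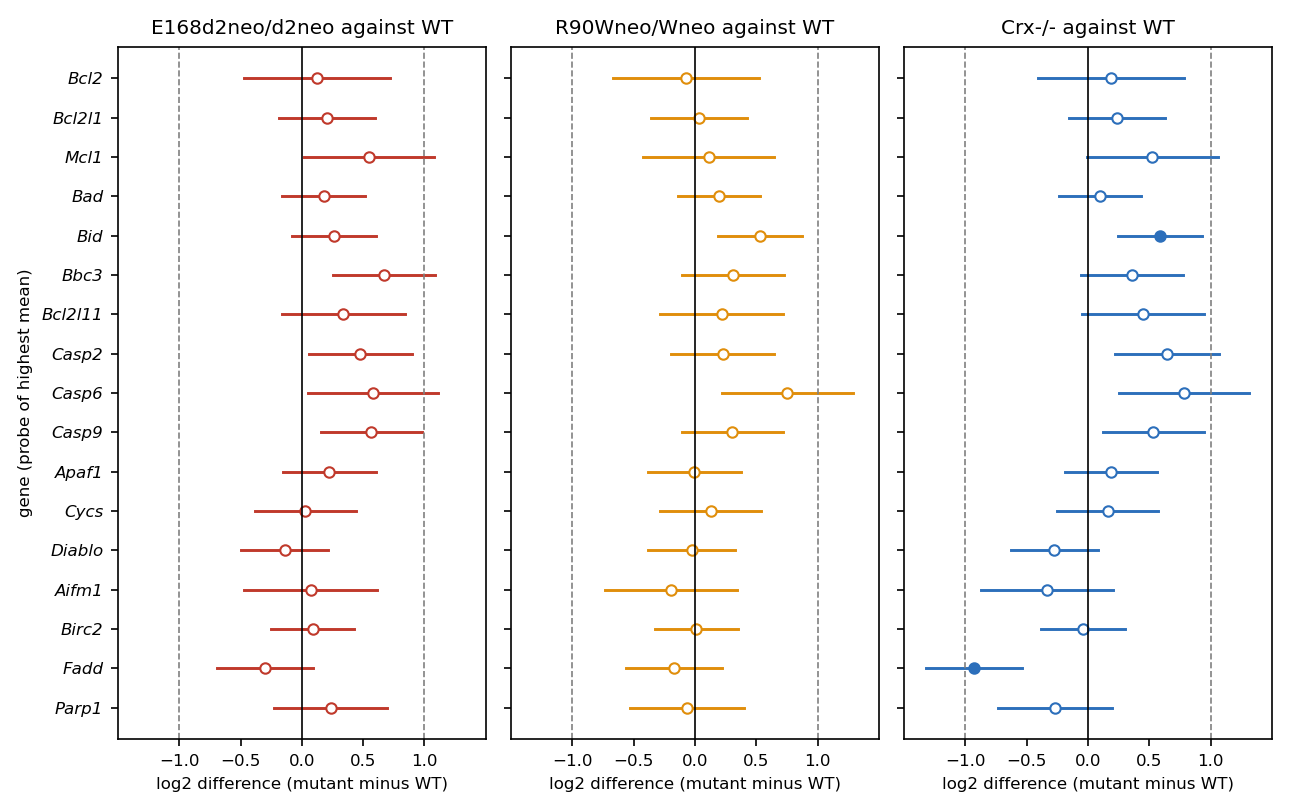
Log2 difference from WT for the 17 genes detected on all 12 arrays in E168d2neo/d2neo, R90Wneo/Wneo and Crx-/- retinas. Points are estimates, lines are 95% confidence intervals from limma, filled points passed an adjusted p of 0.05 over all tested probes, and dashed lines mark 2-fold in either direction. The filled points are Bid (0.59) and Fadd (-0.93), both in Crx-/- retinas.

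By their brightest probes, the 3 caspase genes detected on all arrays had means above WT in all 3 mutants, and none passed. Casp2 and Casp6 each had another tested probe, which is not described here. Casp2 encodes an initiator caspase that responds to stress in the nucleus. Casp2 read 9.95, 9.65 and 9.52 in Crx-/- and 9.40, 9.70 and 9.52 in E168d2neo/d2neo retinas, against 9.37, 8.88 and 8.93 in WT retinas, with no overlap in either case. Its log2 difference was 0.64 ± 0.19 (SE, adjusted p = 0.0695) in Crx-/-, 0.48 ± 0.19 (adjusted p = 0.174) in E168d2neo/d2neo and 0.23 ± 0.19 (adjusted p = 0.719) in R90Wneo/Wneo retinas. Casp6 encodes an executioner caspase that cleaves lamins. Casp6 read 7.46, 8.19 and 7.92 in E168d2neo/d2neo, 7.93, 8.20 and 7.97 in R90Wneo/Wneo, 8.11, 8.01 and 8.06 in Crx-/- and 6.76, 7.64 and 7.44 in WT retinas. All R90Wneo/Wneo and Crx-/- arrays lay above WT, of which replicate 1, the dimmest array, was the lowest. The difference of Casp6 was 0.58 (adjusted p = 0.193) in E168d2neo/d2neo retinas, 0.75 (adjusted p = 0.223) in R90Wneo/Wneo and 0.78 (adjusted p = 0.0800) in Crx-/- retinas, each with an SE of 0.24.

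Casp9, the gene of the caspase that the apoptosome activates, was read by 2 probes that differed in size. With the brightest probe it read 8.79, 9.37 and 9.42 in E168d2neo/d2neo, 8.97, 8.96 and 8.87 in R90Wneo/Wneo, 9.08, 9.24 and 9.16 in Crx-/- and 8.38, 8.71 and 8.79 in WT retinas. The difference from WT was 0.57 (adjusted p = 0.105), 0.31 (adjusted p = 0.607) and 0.53 (adjusted p = 0.121) in E168d2neo/d2neo, R90Wneo/Wneo and Crx-/- retinas, and the SE was 0.19 in each. With a dimmer probe, detected on 11 of 12 arrays, Casp9 read 7.14, 6.84 and 6.75 in E168d2neo/d2neo, 6.96, 6.22 and 6.75 in R90Wneo/Wneo, 6.63, 6.73 and 7.08 in Crx-/- and 5.19, 5.99 and 5.79 in WT retinas. All 9 mutant arrays lay above all 3 WT arrays. By that probe Casp9 rose by 1.25 ± 0.25 log2 units in E168d2neo/d2neo (SE, adjusted p = 0.0137) and by 1.16 ± 0.25 in Crx-/- retinas (adjusted p = 0.0197), and its difference was 0.99 ± 0.25 in R90Wneo/Wneo retinas (adjusted p = 0.101). The WT array on which this probe was not detected, replicate 1, was also the dimmest of the series, and without it the difference was 1.03 in E168d2neo/d2neo and 0.93 in Crx-/- retinas (adjusted p = 0.0405 and 0.0567). The Crx-/- call was also lost without Crx-/- replicate 2 (adjusted p = 0.0557) or replicate 3 (adjusted p = 0.0708). This probe was picked out because it passed, among 49 tested probes of the 21 tested members. Of all tested probes, 3.79% in E168d2neo/d2neo and 3.89% in Crx-/- retinas passed at 2-fold, so the call is not shown to exceed that background. Casp9 lies on chromosome 4 at 141793612 to 141815978 of GRCm38.p6, and the 250 bases before its start are shown because this gene had a probe past 2-fold, with GC boxes (GGGCGG, on either strand) in capitals.
Casp9 chr4:141793362-141793611, plus strand: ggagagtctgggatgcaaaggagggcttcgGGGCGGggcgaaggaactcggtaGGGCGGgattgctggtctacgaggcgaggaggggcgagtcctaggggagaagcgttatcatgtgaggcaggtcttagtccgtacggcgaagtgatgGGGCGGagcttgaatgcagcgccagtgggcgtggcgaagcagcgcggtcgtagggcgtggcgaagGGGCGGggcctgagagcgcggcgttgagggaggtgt

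Casp8, the gene of the caspase that death receptors activate, lay at the edge of detection. It was detected on 3 E168d2neo/d2neo arrays, 2 R90Wneo/Wneo arrays, 1 Crx-/- array and 0 WT arrays. The mean was 5.11 in E168d2neo/d2neo retinas (adjusted p = 0.471) and 5.04 in R90Wneo/Wneo retinas (adjusted p = 0.719), against a WT mean of 4.57 that came from arrays on which the probe was not detected. No fold is given, since the probe was not detected in WT. The mutant means lay below the lowest detected signal of WT replicate 1 (5.30) and above those of replicates 2 and 3 (4.83 and 4.94).

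The genes that act between mitochondria and caspases held none that passed. Cycs, which encodes cytochrome c, differed from WT by 0.03 log2 units in E168d2neo/d2neo, by 0.13 in R90Wneo/Wneo and by 0.16 in Crx-/- retinas, and the SE was 0.19 in each. Apaf1, the scaffold of the apoptosome, differed by 0.22, -0.01 and 0.19, with an SE of 0.17 in each. Diablo, whose product blocks IAP proteins, differed by -0.14, -0.03 and -0.28 with an SE of 0.16, and Aifm1, which encodes the apoptosis-inducing factor, by 0.07, -0.20 and -0.33 with an SE of 0.25. The 95% confidence intervals of all 4 stayed within 2-fold of WT in every mutant. Birc2, which encodes the IAP protein cIAP1, differed by 0.09, 0.01 and -0.04 with an SE of 0.15. A dim Birc2 probe went another way in R90Wneo/Wneo retinas, where it was detected on 0 arrays, against 3 WT arrays, with means of 4.20 and 5.32 and no overlap (adjusted p = 0.0892). Parp1, the DNA damage sensor that caspases cleave, differed by 0.23, -0.07 and -0.27 with an SE of 0.21.

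**Figure D3:**
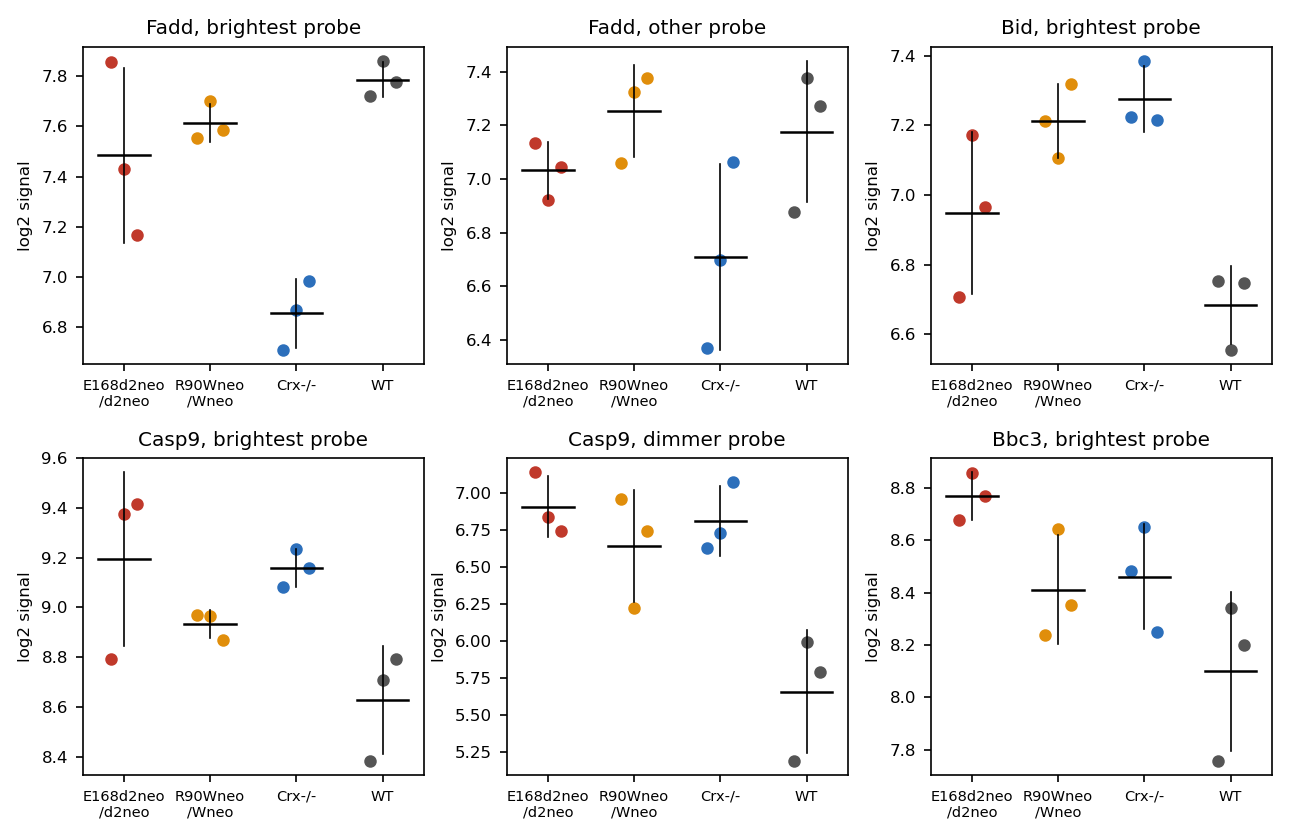
Log2 signal of single probes on the 3 arrays of each genotype, with mean (horizontal line) and SD (vertical line), each panel with its own scale. Fadd is lowest in Crx-/- retinas with both probes shown, while Casp9 lies above WT on all 9 mutant arrays with the dimmer probe and overlaps WT in E168d2neo/d2neo retinas with the brightest.

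Of the death receptor genes, Fadd was the one member that fell. Fadd encodes the adaptor that links death receptors to caspase-8. It read 7.85, 7.43 and 7.17 in E168d2neo/d2neo, 7.55, 7.70 and 7.59 in R90Wneo/Wneo, 6.71, 6.87 and 6.99 in Crx-/- and 7.72, 7.86 and 7.78 in WT retinas. All Crx-/- arrays lay below all arrays of the other genotypes, and the 3 R90Wneo/Wneo arrays lay just below WT. Fadd fell in Crx-/- retinas by 0.93 log2 units (SE 0.18, adjusted p = 0.0102), and the log2 difference was -0.30 (adjusted p = 0.372) in E168d2neo/d2neo and -0.17 (adjusted p = 0.788) in R90Wneo/Wneo retinas. The call held without each of the 12 arrays in turn, with Crx-/- replicate 3 left out among them. Another Fadd probe, detected on all 12 arrays, gave a log2 difference of -0.47 ± 0.20 in Crx-/- retinas (adjusted p = 0.212), with arrays that overlapped WT. The remaining tested Fadd probe gave -0.35 in Crx-/- retinas (adjusted p = 0.614). It went the other way in E168d2neo/d2neo (0.32, adjusted p = 0.649) and R90Wneo/Wneo retinas (0.69, adjusted p = 0.505, limma). Fas and Tnfrsf1a, the genes of 2 death receptors, were detected on 2 and 4 arrays in all. For Fas these were 1 Crx-/- and 1 WT array, and for Tnfrsf1a 2 E168d2neo/d2neo arrays, 1 R90Wneo/Wneo array, 0 Crx-/- arrays and 1 WT array, so that no fold is given. Fadd lies on chromosome 7 at 144578323 to 144582441, on the same chromosome as Crx but at a distance of 128.7 Mb from it. The 250 bases before its start are shown because it was the member that fell, with the same capitals.
Fadd chr7:144582442-144582691, minus strand: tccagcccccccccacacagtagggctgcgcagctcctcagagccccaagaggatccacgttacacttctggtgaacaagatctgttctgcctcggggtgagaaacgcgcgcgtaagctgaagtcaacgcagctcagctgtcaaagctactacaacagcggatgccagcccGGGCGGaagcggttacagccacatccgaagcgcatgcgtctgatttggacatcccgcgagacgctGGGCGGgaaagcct

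Sequence before the start sites was read for all members found in RefSeq (GRCm38.p6), since CRX and its relatives bind TAATCC. That motif, on either strand and in the 250 bases before the start, was found in 0 of 27 start regions of the 20 tested members with a sequence, against 6.25% of 32851 regions of all genes. Over all 30 members with a sequence it was found in 1 of 40 regions, that of Bax. The GC box was found in 18 of the 27 regions of tested members, against 32.7% of all regions. A match names letters and not a bound site, and a lack of a match says only that the letters are not in this window.

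Medians over the members were also taken. Over the 17 genes detected on all 12 arrays, the median log2 difference was 0.22 in E168d2neo/d2neo retinas, 0.11 in R90Wneo/Wneo retinas and 0.19 in Crx-/- retinas, beside 0.01, 0.02 and 0.02 over the 12271 probes detected on all 12 arrays. Over all 21 tested members, 4 of them near the limit of detection, the median was 0.22, 0.03 and 0.16 in the same order. Of the 17 genes, 15 were above WT in E168d2neo/d2neo retinas, 11 in R90Wneo/Wneo retinas and 12 in Crx-/- retinas. Of the 12271 probes, 6292, 6496 and 6376 were above WT in the same order. These signs rest on 1 probe per gene. Of 14 other probes of members, detected on most arrays, 11, 7 and 8 had the same sign as the gene's brightest probe. The 3 comparisons share the WT arrays, so these counts are not separate pieces of evidence, and no test of the list was made. All 3 arrays lay above all 3 WT arrays for 3 of the 17 genes in E168d2neo/d2neo retinas, 4 in R90Wneo/Wneo retinas and 6 in Crx-/- retinas, against 16.3%, 13% and 23.3% of the probes detected on all 12 arrays. With 17 genes, the count in E168d2neo/d2neo retinas lay near that background. The counts in R90Wneo/Wneo and Crx-/- retinas are not shown to exceed it. The 6 genes in Crx-/- retinas were Mcl1, Bid, Bcl2l11, Casp2, Casp6 and Casp9. The size of a change was bounded for most genes, since the 95% confidence interval stayed within 2-fold of WT for 14 of 17 genes in E168d2neo/d2neo retinas, 16 in R90Wneo/Wneo retinas and 13 in Crx-/- retinas. The exceptions were Mcl1, Bbc3 and Casp6 in E168d2neo/d2neo, Casp6 in R90Wneo/Wneo, and Mcl1, Casp2, Casp6 and Fadd in Crx-/- retinas.

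Mutants were also set against each other, and no member passed in these 3 comparisons, where 0.691% of probes passed for E168d2neo/d2neo against Crx-/-, 0.502% for R90Wneo/Wneo against Crx-/- and 0.654% for E168d2neo/d2neo against R90Wneo/Wneo. The counts of members at an unadjusted p under 0.05 were 4, 1 and 0 in that order (limma), beside 10.4%, 10.6% and 8.71% of all probes. SAM called 0 members in each, beside 0.115%, 0.103% and 0.280% of all probes. The fall of Fadd in Crx-/- retinas is thus not shown to differ from its level in the knock-ins (adjusted p = 0.182 for E168d2neo/d2neo against Crx-/- and 0.113 for R90Wneo/Wneo against Crx-/-). Signals of Fadd averaged 7.48 ± 0.35 in E168d2neo/d2neo and 7.61 ± 0.08 in R90Wneo/Wneo retinas, against 6.86 ± 0.14 in Crx-/- retinas (SD, n = 3 each).

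Beside the members, 90 further genes of the death pathways were read, in 7 lists, and 62 were tested. The lists were other BCL2 relatives, other caspases with nucleases and IAP proteins, other death receptor signalling, necroptosis and pyroptosis, the p53 pathway, calpains and cathepsins, and poly(ADP-ribose) and nuclear death. In 5 of these lists no gene passed an adjusted p of 0.05 in any comparison (limma). Cdkn1a, the p53 target that stops the cell cycle, read 10.05, 9.86 and 9.71 in E168d2neo/d2neo, 8.95, 9.13 and 8.85 in R90Wneo/Wneo, 9.85, 9.83 and 9.75 in Crx-/- and 8.90, 8.95 and 8.71 in WT retinas. By its brightest probe Cdkn1a rose by 1.02 ± 0.15 log2 units in E168d2neo/d2neo (SE, adjusted p = 0.00191) and by 0.95 ± 0.15 in Crx-/- retinas (adjusted p = 0.00310), with no overlap. The difference was 0.12 ± 0.15 in R90Wneo/Wneo retinas (adjusted p = 0.827). Its other tested probes, each detected on 2 WT arrays, did not pass. They gave 1.54 and 0.83 in E168d2neo/d2neo (adjusted p = 0.0759 and 0.154) and 1.39 and 0.97 in Crx-/- retinas (adjusted p = 0.101 and 0.0955). In R90Wneo/Wneo retinas they gave 0.50 and 0.46 (adjusted p = 0.751 and 0.651, limma). Gadd45a, another gene that p53 and stress induce, moved the opposite way. Gadd45a read 9.07, 9.51 and 9.59 in E168d2neo/d2neo, 9.97, 10.19 and 10.31 in R90Wneo/Wneo, 9.67, 9.80 and 9.76 in Crx-/- and 10.43, 11.05 and 10.74 in WT retinas. By this probe it fell by 1.35 log2 units in E168d2neo/d2neo (SE 0.20, adjusted p = 0.00199) and by 1.00 in Crx-/- retinas (SE 0.20, adjusted p = 0.0120). Its difference was -0.58 in R90Wneo/Wneo retinas (adjusted p = 0.254). Another tested Gadd45a probe gave -1.08 in E168d2neo/d2neo (adjusted p = 0.0344), -0.69 in Crx-/- (adjusted p = 0.154) and -0.43 in R90Wneo/Wneo retinas (adjusted p = 0.612, limma).

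**Figure D4:**
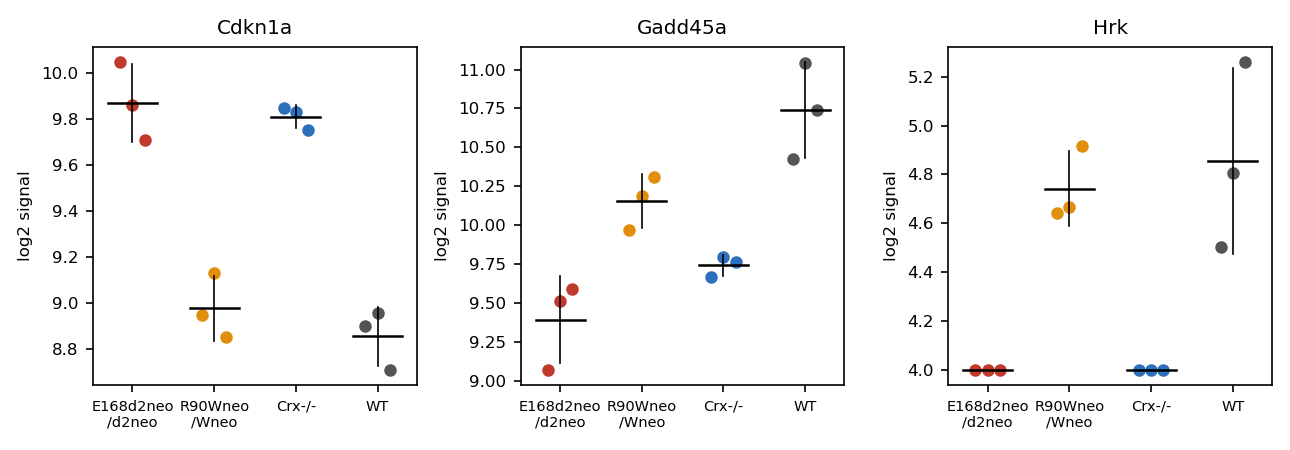
Log2 signal of Cdkn1a, Gadd45a and Hrk on the 3 arrays of each genotype, with mean (horizontal line) and SD (vertical line). By the brightest probe of each gene, Cdkn1a is higher and Gadd45a lower than WT in E168d2neo/d2neo and Crx-/- retinas, and Hrk is at the floor of 4 in both.

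The 16 tested genes of the p53 list otherwise held none that passed, so that 1 of 16 rose and 1 of 16 fell in E168d2neo/d2neo and in Crx-/- retinas, and 0 passed in R90Wneo/Wneo retinas. Of all probes, 2.88% and 3.14% passed as higher and 3.68% and 3.87% as lower in E168d2neo/d2neo and Crx-/- retinas, and of 16 genes such shares come to less than 1 gene in each direction. Hrk, the gene of a BH3-only protein of neurons, is named after its values were seen. It was detected on 0 E168d2neo/d2neo, 1 R90Wneo/Wneo, 0 Crx-/- and 1 WT array and lay at the floor on all 6 arrays of E168d2neo/d2neo and Crx-/- retinas. The fit passed it as lower in both (adjusted p = 0.0192 and 0.0183), but with a floor of 32 its difference shrank to -0.09 in each. No fold is given for it.

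How far these counts depend on the arrays used has 2 parts. WT replicate 1 and E168d2neo/d2neo replicate 1 were left out together, a choice made after the signals were seen. Mcl1 and Casp9 then passed in E168d2neo/d2neo and Bid, Bcl2l11, Casp2 and Fadd in Crx-/- retinas. Of 23817 probes tested that way, 1432 passed as higher and 1199 as lower in E168d2neo/d2neo, and 1224 and 1380 in Crx-/- retinas. In the main analysis these numbers were 700 and 895, and 763 and 942, of 24311. Members that reached 2-fold with an adjusted p of at most 0.05, by their brightest probe or with probes averaged, remained 0 in every comparison under all alternatives. Scaling each array to the same mean in place of quantile normalization gave 62.7% of called probes as higher in E168d2neo/d2neo retinas, beside 43.9% after quantile normalization, 46.8% beside 36.8% in R90Wneo/Wneo retinas, 52.7% beside 44.8% in Crx-/- retinas, and 54.3% beside 41.1% for E168d2neo/d2neo against Crx-/-.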

How the data were processed

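RNA from pooled retinas was hybridised to Illumina MouseWG-6 bead arrays, 3 arrays for each of 4 genotypes, grouped by their titles. The deposited table gives an intensity that the authors had corrected for background but not normalized between arrays, and a detection p-value against negative controls, also deposited, stands next to every intensity. A second deposited table of intensity holds the same signals times 1 factor per array (0.753 to 1.68) and served as an alternative. The values were quantile-normalized over the 12 arrays, set to a floor of 16 and log2-transformed (limma 3.58.1, R 4.3.3). The test covered the 24311 probes detected (p-value under 0.05) on 1 array or more, and the tested probe with the highest mean stood for its gene. Genotype was the only factor of 1 linear model over all arrays (lmFit, eBayes, 3.07 prior degrees of freedom), and p-values were adjusted by Benjamini and Hochberg over all tested probes in each comparison. Gene symbols came from the platform table, updated through Entrez IDs to RefSeq. All members were named, and of the further lists those past 2-fold with an adjusted p of at most 0.05 against WT. The members and lists were chosen with earlier results of these data known. The steps were tested on simulated data with independent noise, equal on all arrays for each probe, and known changes in bright probes only. That test does not cover dim probes or arrays of unequal quality. With 3 arrays against 3 pools, p-values measure the spread between pools, and an exact two-sided permutation test of 1 value cannot go below 0.1. The labels do not say what the array numbers share. Deviations of same-numbered arrays correlated above 0.1 in all 3 pairs for E168d2neo/d2neo and WT (0.313, 0.177 and 0.101) and in no other pair of genotypes. Alternatives changed the scaling, background, floor, filter, test, variance model, weights, probes, block and arrays.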

Additional observations from a re-analysis of the deposited data

Results flagged for a closer look

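Cdkn1a differed between the mutants by a test of the difference itself. The log2 difference was 0.89 for E168d2neo/d2neo against R90Wneo/Wneo retinas (SE 0.15, adjusted p = 0.0206, all 3 arrays higher) and -0.83 for R90Wneo/Wneo against Crx-/- retinas (SE 0.15, adjusted p = 0.0413, all 3 arrays lower). Leaving out 1 array kept the first call in 9 of 12 cases and the second in 2 of 12. The first was lost without E168d2neo/d2neo replicate 2, R90Wneo/Wneo replicate 1 or R90Wneo/Wneo replicate 3 (adjusted p = 0.0676, 0.0691 and 0.125). The second was kept without E168d2neo/d2neo replicate 1 or WT replicate 1, and the highest adjusted p, 0.186, came without R90Wneo/Wneo replicate 3. With all probes of Cdkn1a averaged, the differences were 0.77 (adjusted p = 0.353) and -0.74 (adjusted p = 0.295).

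The dimmer Casp9 probe, which the counts of members do not use, gave a signal above WT of 1.25 log2 units in E168d2neo/d2neo retinas and 1.16 in Crx-/- retinas. Its values stand in the report beside those of the brightest Casp9 probe, with the share of all probes that passed at 2-fold. Over the alternatives other than leaving out single arrays, 9 of 11 kept the E168d2neo/d2neo call and 9 of 11 the Crx-/- call.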

How the results depend on the processing

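Members past 2-fold were 0 in all 6 comparisons under every alternative run. Of 1974 values of single genes under the alternatives, 1878 kept their side of the threshold, 38 passed only under the alternative, 58 were lost and 0 were called with the opposite sign. Counts of members with an adjusted p of at most 0.05 (in the main analysis 0 for E168d2neo/d2neo, 0 for R90Wneo/Wneo, 2 for Crx-/- against WT, 0 between mutants, 2 in all) moved as follows, and the cause was not tested. In E168d2neo/d2neo the count was 1 (Bbc3) with mean scaling, with normexp, with a floor of 32, with 3 arrays detected and with the replicate block, 1 (Casp9) with all probes averaged, 2 with the intensity trend, 6 with array weights and 2 without the 2 dimmest arrays. Over all 24311 tested probes, 1090 passed as higher and 1144 as lower in E168d2neo/d2neo with the trend, and 2850 and 2408 with weights. The main analysis gave 700 and 895. Without the 2 dimmest arrays 1432 and 1199 of 23817 probes passed. In R90Wneo/Wneo the count of members was 1 (Bid) with array weights, where 459 probes passed as higher and 625 as lower. In Crx-/- it was 1 with SAM, 1 with probes averaged, 1 with the replicate block, 3 with normexp (Casp2 added), 4 with the trend, 6 with weights and 4 without the 2 dimmest arrays. In Crx-/- retinas 1193 probes passed as higher and 1208 as lower with the trend, and 2041 and 2059 with weights. Without the 2 dimmest arrays the numbers were 1224 and 1380, and in the main analysis 763 and 942. For R90Wneo/Wneo against Crx-/- the count of members was 1 (Fadd) with mean scaling, with weights and without the 2 dimmest arrays. Probes higher and lower there numbered 99 and 46, 346 and 230, and 224 and 126 in that order. For E168d2neo/d2neo against R90Wneo/Wneo the count of members was 1 (Mcl1) with weights, beside 517 probes higher and 437 lower. Over all 6 comparisons the calls of members numbered 4 with mean scaling, 4 with normexp, 1 with SAM, 6 with the trend, 15 with weights and 7 without the 2 dimmest arrays. Calls of further genes, 8 in the main analysis, numbered 5 with only the 2 genotypes compared, 30 with weights and 15 without the 2 dimmest arrays. Leaving out 1 array gave 0 to 2 members in E168d2neo/d2neo, 1 to 6 in Crx-/- and 0 to 1 for R90Wneo/Wneo against Crx-/-, 1 to 9 calls in all and 6 to 15 calls of further genes, with the highest counts without E168d2neo/d2neo replicate 1. Without E168d2neo/d2neo replicate 1, 1715 of 24062 probes passed as higher and 1446 as lower in E168d2neo/d2neo, and 1352 and 1395 in Crx-/- retinas. For R90Wneo/Wneo against Crx-/- these numbers were 145 and 78. The Crx-/- count was 1 (Fadd) without any 1 of 9 arrays, those other than E168d2neo/d2neo replicates 1 and 2 and WT replicate 1.

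The median log2 difference of the members moved by more than the spread between arrays (SD 0.07) to 0.36 in E168d2neo/d2neo and 0.21 in R90Wneo/Wneo with mean scaling, where the median of all probes was 0.10 and 0.06, and to 0.30 in Crx-/- without the 2 dimmest arrays. Between E168d2neo/d2neo and R90Wneo/Wneo it was 0.0706 with weights, 0.0869 with probes averaged and 0.0855 without the 2 dimmest arrays, and between R90Wneo/Wneo and Crx-/- it was 0.0396 with probes averaged. Leaving out 1 array gave 0.18 to 0.32 in E168d2neo/d2neo, 0.14 to 0.30 in Crx-/- and 0.0854 to 0.192 for E168d2neo/d2neo against R90Wneo/Wneo, where both highest values against WT came without WT replicate 1 and 0.0854 came without E168d2neo/d2neo replicate 1. Bid kept its call in Crx-/- retinas under 7 of 12 other alternatives (adjusted p from 0.00808 to 0.435) and Fadd under 11 of 12 (0.000930 to 0.0657, lost with probes averaged). Deviations of arrays with the same number correlated from -0.05 to 0.31 over all pairs of genotypes, and 7 of 12 arrays correlated best with their own number. The correlation was above 0.1 in all 3 pairs only between E168d2neo/d2neo and WT. Under the replicate block Bid in Crx-/- retinas was at 0.59 (adjusted p = 0.0687). Dim signal limits 10 of the 31 genes, which were detected on some arrays or none.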
